A study of Homo sapiens with 21 samples.

Results

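The genes described here are those of cholesterol and fatty acid synthesis, in human acute myeloid leukemia cell lines depleted of the kinase SYK. Described with them are the regulators of that synthesis and LXR-regulated genes, some of them of cholesterol efflux. A list of 32 genes was used, and 30 of them were measured among the 12165 genes of the arrays. For each gene the probe set (a group of short probes for 1 transcript) with the highest mean log2 intensity over all arrays was taken. FDFT1 and HSD17B7 were not analysed here. The 30 genes comprised 7 of the mevalonate arm, 9 of the sterol arm and 6 of fatty acid synthesis and desaturation. A further 4 belong to SREBP control and 4 are LXR-regulated. Of the LXR-regulated genes ABCA1 and ABCG1 act in efflux, while MYLIP is a ubiquitin ligase and NR1H3 a receptor. Of the 30 genes, 23 are called SREBP targets below, namely the genes of both arms, the fatty acid genes and INSIG1.

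Cells make cholesterol from acetyl-CoA, first through the mevalonate arm to farnesyl diphosphate and then through squalene, lanosterol and a series of sterol intermediates. When membrane sterol is low, SCAP escorts the SREBP transcription factors from the endoplasmic reticulum to the Golgi, where they are cleaved and released to switch on genes of sterol and fatty acid synthesis. When sterol is plentiful, INSIG proteins hold SCAP and SREBP back, while oxysterols activate the LXR receptors, which switch on genes of cholesterol efflux. Desmosterol, an intermediate of the sterol arm, can also activate LXR.

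The study profiled MOLM-14, U937 and HL-60 cells on 21 Affymetrix high-throughput human arrays. MOLM-14 carries an internal tandem duplication of the receptor kinase FLT3, U937 is a monocytic line and HL-60 a promyelocytic one. Cells carried an shRNA against luciferase (shLuc, 3 arrays in each line) or against SYK (shSYK_1 or shSYK_2, 2 arrays per hairpin and line). All groups, controls included, received puromycin at 1 µg/ml from 48 hours after infection, and RNA was taken on day 5. Each array measured a selected pool of cells, so fewer cells with a transcript and less transcript per cell cannot be told apart. Per the labels' protocol each group is a set of separate transductions of 1 line, so p-values measure only the spread between these cultures. The series concerns the relation of SYK to FLT3, and the comparisons below give the response of the lipid genes to each hairpin in each line.

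The SYK sequences targeted by the hairpins are shown because many of the changes below differed between them. Capitals mark the 7 bases that would pair with bases 2 to 8 of a guide strand that begins opposite the last base of the 21-base target.
shSYK_1: gcagcagaacagaCATGTCAa
shSYK_2: gcaggccatcatcAGTCAGAa
The capitals of the hairpins differ, and whether transcripts that share them moved was not tested.

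Promoter sequence is shown for the genes with the clearest changes below and for SREBF2. Windows of 250 bases before the start site, from RefSeq on GRCh38.p14 and read in the direction of each gene, matched 26 of the 30 measured genes. They were searched on both strands for CCAAT, the box bound by NF-Y, which acts beside SREBP, and for TCACNCCAC, a form of the sterol regulatory element. They were also searched for CACGTG, an E-box that SREBP-1 can bind, and for AGGTCA followed after any 4 bases by AGGTCA, a form of the LXR element. Capitals mark CCAAT or its reverse complement ATTGG, and in SREBF2, of which 60 bases are shown, also the sterol regulatory element.
INSIG1, chr7:155297628-155297877, plus strand: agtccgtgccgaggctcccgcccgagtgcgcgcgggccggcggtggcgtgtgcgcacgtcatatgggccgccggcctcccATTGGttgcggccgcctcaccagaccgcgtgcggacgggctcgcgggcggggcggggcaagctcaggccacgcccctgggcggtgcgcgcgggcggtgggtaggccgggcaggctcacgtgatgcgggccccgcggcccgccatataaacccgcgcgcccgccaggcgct
MSMO1, chr4:165327419-165327668, plus strand: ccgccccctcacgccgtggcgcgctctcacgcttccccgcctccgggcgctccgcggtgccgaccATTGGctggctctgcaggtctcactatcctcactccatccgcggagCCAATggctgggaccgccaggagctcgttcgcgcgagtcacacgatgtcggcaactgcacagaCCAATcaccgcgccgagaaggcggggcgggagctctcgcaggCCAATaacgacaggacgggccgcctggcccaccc
LSS, chr21:46228775-46229024, minus strand: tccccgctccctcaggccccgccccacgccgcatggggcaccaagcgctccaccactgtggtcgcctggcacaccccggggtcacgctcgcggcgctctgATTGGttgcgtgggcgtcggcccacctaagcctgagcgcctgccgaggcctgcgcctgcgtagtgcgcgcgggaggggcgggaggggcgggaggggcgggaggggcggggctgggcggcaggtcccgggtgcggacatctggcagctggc
EBP, chrX:48521558-48521807, plus strand: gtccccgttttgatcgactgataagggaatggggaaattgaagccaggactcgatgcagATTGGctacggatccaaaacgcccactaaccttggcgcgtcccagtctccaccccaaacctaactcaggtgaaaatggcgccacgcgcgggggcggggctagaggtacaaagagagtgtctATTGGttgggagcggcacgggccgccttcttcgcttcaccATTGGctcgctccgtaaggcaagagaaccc
SREBF2, chr22:41832952-41833011, plus strand: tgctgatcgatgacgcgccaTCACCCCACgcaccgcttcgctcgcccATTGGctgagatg
CCAAT stood in the windows of 19 of the 26 genes, against 37.0% of the 27305 genes with a window. TCACNCCAC stood in 1 window, that of SREBF2, against 1.09% of genes. CACGTG stood in 5 windows, those of SC5D, ELOVL5, INSIG1, SCAP and ABCA1, against 7.73% of genes. The LXR element stood in 0 windows, against 0.0183% of genes. A match describes the letters of a window and does not show binding. None of the motifs contains another.

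SYK was lower on 12 of 12 hairpin arrays than on every shLuc array of its line. Averaged over the lines, 25.3% of the control level was left with shSYK_1 and 18.5% with shSYK_2. The array labelled HL-60 shSYK_2 replicate 1 has conflicting labels: its title and treatment name shSYK_2, its source name shSYK_1. SYK was at log2 6.66 on it, 6.90 on HL-60 shSYK_2 replicate 2, and 7.04 and 7.001 on the HL-60 shSYK_1 arrays. On both HL-60 shSYK_2 arrays LSS and INSIG1 lay below, and ACLY, FADS1 and ELOVL5 above, both shSYK_1 arrays. HMGCS1 and SQLE, among others, overlapped. Which label is right was not tested. This array does not enter the log2 changes within MOLM-14 and U937, so counting it as shSYK_1 alters only their adjusted p. Its upper quartile of intensity was 122.3, against 134.5 to 139.8 on the other 20 arrays, so the calls of single genes for shSYK_2 in HL-60 are given with and without it, and beside them those lost when it is counted as shSYK_1. Of 8 myeloid genes fixed as markers 6 were measured, and their median lay at the 68.4th to 91.9th percentile of all genes in the 3 lines. On the average of the lines 3 of these 6 rose and 2 fell with shSYK_1 (median log2 change 0.26), and 2 rose and 3 fell with shSYK_2 (median -0.15). In MOLM-14 with shSYK_2, 0 rose and 3 fell (median -0.47). Their part in the results below was not tested. The 26 measured of 30 markers of erythroid, lymphoid, epithelial and stromal cells had list medians at the 17.0th to 37.0th percentile, and on the average of the lines 1 of them rose and 1 fell with shSYK_1, and 2 rose and 1 fell with shSYK_2. Of 12 DNA replication genes 10 fell with shSYK_1, with a median log2 change of -0.28, and 12 fell with shSYK_2, with a median of -0.57. The part of this list's change in the results below was not tested.

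Averaged over the 3 lines, 8 of the 30 genes rose with shSYK_1, beside 18.2% of all genes that did so, and 6 fell, beside 17.4%. The 8 that rose included INSIG1, the brake on SREBP processing, MSMO1 and EBP of the sterol arm, and ABCA1, the main exporter of cholesterol. The 6 that fell were led by FADS1 and ELOVL5, which desaturate and lengthen polyunsaturated fatty acids. With shSYK_2, 11 of the 30 fell, beside 14.7% of all genes, and 0 rose, beside 15.6%. The falls were led by LSS, the enzyme that closes squalene epoxide into lanosterol. Expression of LSS fell to 48% of the control level, and that of INSIG1 rose to 143% with shSYK_1.

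A gene was called changed at a Benjamini-Hochberg adjusted p under 0.05 in limma, over all 12165 genes. In either direction 14 of the 30 genes were called with shSYK_1, beside 35.6% of all genes, and 11 with shSYK_2, beside 30.3%. No member's average call with shSYK_2 was lost without HL-60 shSYK_2 replicate 1. The median log2 change of the 23 SREBP targets was -0.06 with shSYK_1 and -0.18 with shSYK_2, beside 0.00 and 0.02 over all genes. For the 4 LXR-regulated genes it was 0.22 and -0.03. Both hairpins are set against the same 3 shLuc arrays of each line. Called with both hairpins on the average of the lines were DHCR7 and FASN, lower with both, and HMGCS1 and EBP, higher with shSYK_1 and lower with shSYK_2. No single line called DHCR7 with both hairpins, and FASN was called in HL-60 alone. Alternatives other than replicate blocks that ended an average call are given with each gene below. Blocks, which match the arrays of a line by replicate number, ended the shSYK_1 average call of DHCR7, FASN, HMGCS1 and EBP. With the blocks HMGCS1 was at 0.20 (adjusted p = 0.0794), EBP at 0.15 (adjusted p = 0.0533), DHCR7 at -0.17 (adjusted p = 0.0504) and FASN at -0.19 (adjusted p = 0.0902). The direct test of shSYK_2 against shSYK_1 called 17 of the 30 genes, beside 35.7% of all genes. Of the 17, 13 were lower with shSYK_2, beside 18.4% of all genes, and 4 (ACLY, FADS1, ELOVL5 and SREBF1) were higher, beside 17.3%. Within single lines this difference was called in 14 of the 30 genes in MOLM-14 (25.9% of all genes), 4 higher (13.2%) and 10 lower (12.8%). In U937 it was called in 11 (23.0%), 2 higher (11.9%) and 9 lower (11.1%). HL-60 had 9 such calls (22.2%), 4 higher (9.59%) and 5 lower (12.6%). Without HL-60 shSYK_2 replicate 1 the HL-60 calls were 5 (13.2% of all genes), 3 higher (6.77%) and 2 lower (6.41%).

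**Figure D1:**
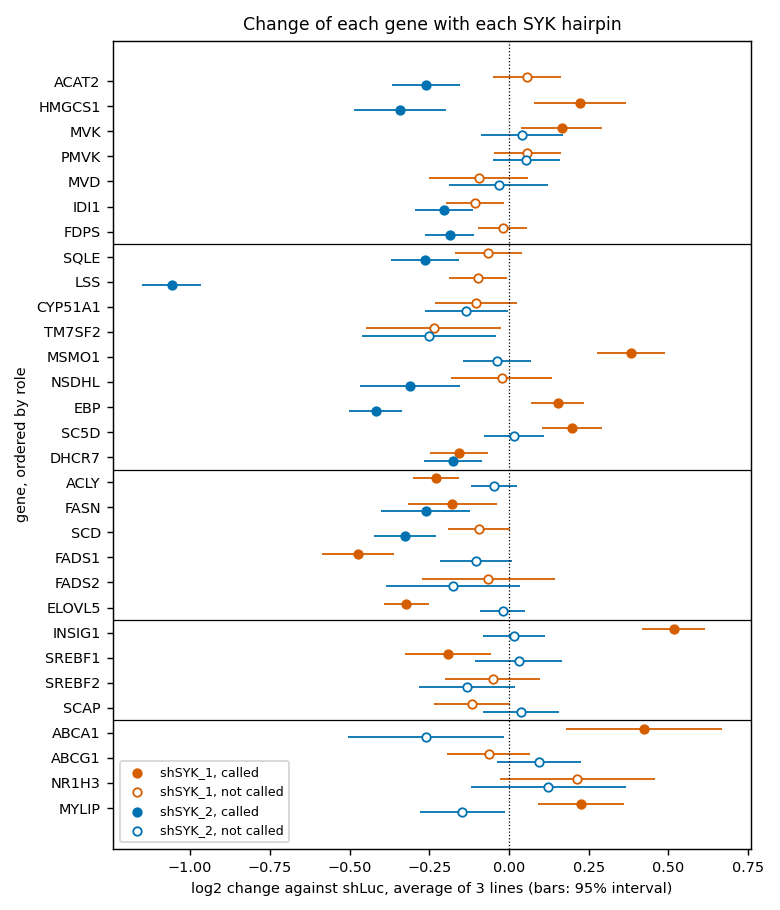
Log2 change of each of the 30 measured genes against shLuc, averaged over 3 lines (points) with 95% intervals (bars). Rows are ordered by role, and filled points mark an adjusted p under 0.05. LSS lies farthest to the left with shSYK_2 at -1.06, and INSIG1 farthest to the right with shSYK_1 at 0.52.

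Line by line, 11 of the 30 genes were called with shSYK_1 in MOLM-14 (25.5% of all genes), 7 higher (13.0% of all genes) and 4 lower (12.5%). With shSYK_2, 9 were called there (16.6%), 0 higher (8.47%) and 9 lower (8.12%). In U937, 6 were called with shSYK_1 (16.9%), 4 higher (8.53%) and 2 lower (8.37%), and 3 with shSYK_2 (16.2%), 0 higher (8.32%) and 3 lower (7.92%). In HL-60, 7 were called with shSYK_1 (24.3%), 1 higher (12.5%) and 6 lower (11.8%), and 7 with shSYK_2 (21.5%), 0 higher (10.0%) and 7 lower (11.4%). Without shSYK_2 replicate 1 the last count was 2, namely LSS and FASN. The shSYK_1 count in MOLM-14 was 5 without shSYK_1 replicate 1, and the shSYK_2 count there was 4 without either shSYK_2 array. The share of all genes called without these arrays is not given here, so these lower counts do not compare the members with other genes. The DNA replication genes had median log2 changes with shSYK_1 of -0.53 in MOLM-14 and -0.26 in HL-60 but -0.04 in U937. Over these 6 comparisons 21 of the 30 genes were called at least once, beside 54.1% of all genes. EBP, HMGCS1 and MYLIP were called in both directions, depending on the hairpin, beside 8.38% of all genes called in both directions. The 9 that were called in none were PMVK, MVD, CYP51A1, TM7SF2, FADS2, SREBF2, SCAP, ABCG1 and NR1H3. The arrays of a hairpin lay above or below all controls of the line in many genes. With shSYK_1 this held for 46.7% of the 30 genes in MOLM-14 (48.5% of all genes), 43.3% in U937 (44.7%) and 60% in HL-60 (48.2%). With shSYK_2 it held for 60% (46.7%), 53.3% (47.5%) and 73.3% (43.0%) in the same order. Separations of single genes below are to be read beside these shares.

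**Figure D2:**
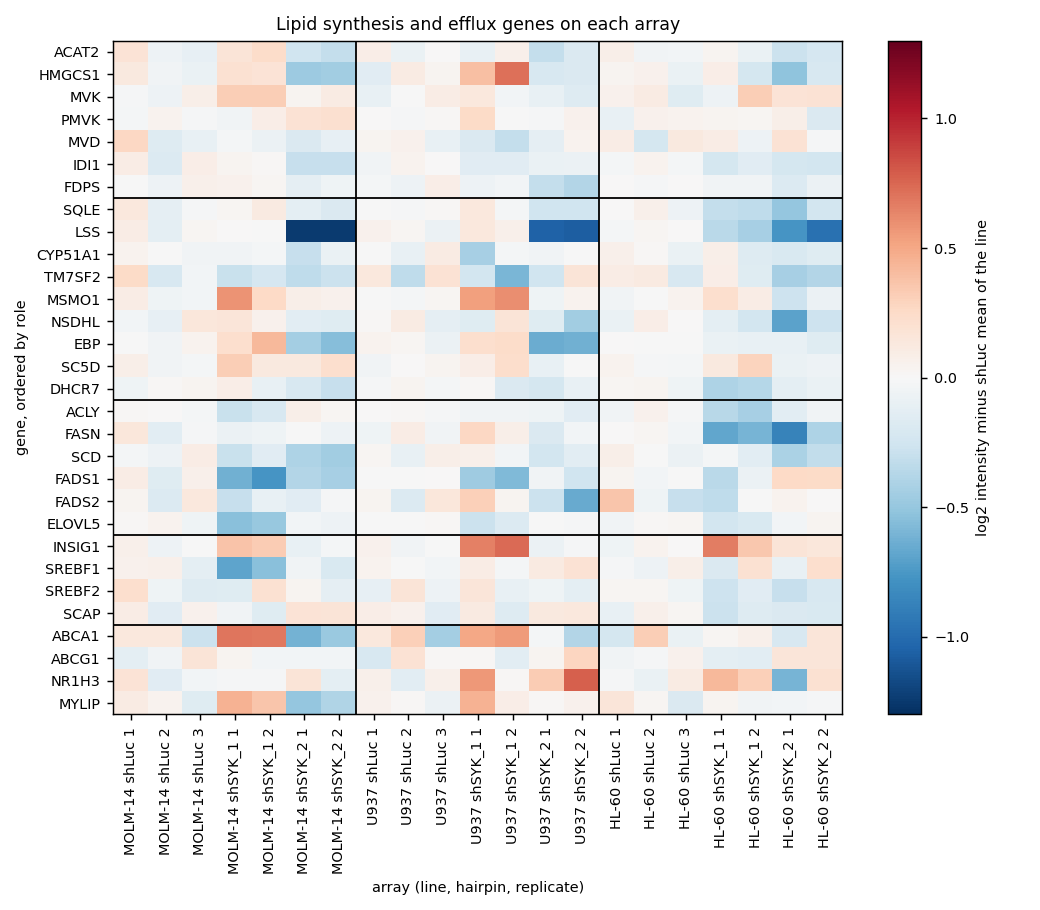
Log2 intensity of each of the 30 measured genes (rows, by role) on each of the 21 arrays (columns) minus the mean of the 3 shLuc arrays of its line. LSS is lower on all 6 shSYK_2 arrays, and INSIG1 and MSMO1 are higher on all 6 shSYK_1 arrays, than the control arrays of the line.

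In the mevalonate arm the direct test of the hairpins called 3 of the 7 genes, HMGCS1, ACAT2 and FDPS, all lower with shSYK_2 (18.4% of all genes). With shSYK_1, HMGCS1 and MVK rose on the average of the lines (18.2% of all genes), 0 fell (17.4%) and 5 of the 7 genes were not called (median log2 change 0.06). With shSYK_2, HMGCS1, ACAT2, IDI1 and FDPS fell (14.7% of all genes), 0 rose (15.6%) and MVK, PMVK and MVD were not called (median -0.19). HMGCS1, which condenses acetoacetyl-CoA with acetyl-CoA into HMG-CoA, had the largest average change with each hairpin. HMGCS1 had log2 intensities of 7.80, 7.63 and 7.58 on the shLuc arrays of MOLM-14, 7.87 and 7.85 with shSYK_1 and 7.20 and 7.23 with shSYK_2. In U937 cells HMGCS1 had log2 intensities of 7.21, 7.46 and 7.40 with shLuc, 7.75 and 8.07 with shSYK_1 and 7.15 and 7.17 with shSYK_2. HMGCS1 in HL-60 cells had log2 intensities of 8.65, 8.67 and 8.52 with shLuc, 8.70 and 8.39 with shSYK_1 and 8.09 and 8.40 with shSYK_2. Every shSYK_2 array lay below all control arrays of its line, and the shSYK_1 arrays lay above them in MOLM-14 and U937 but on both sides in HL-60. The average log2 change was 0.22 (SE 0.068, adjusted p = 0.016) with shSYK_1 and -0.34 (SE 0.068, adjusted p = 0.000983) with shSYK_2. The hairpins differed by -0.56 (SE 0.0744, adjusted p = 1.31e-05). HMGCS1 rose with shSYK_1 in U937 with a log2 change of 0.55 (adjusted p = 0.00319). It fell with shSYK_2 in MOLM-14, at -0.46 (adjusted p = 0.0126), and in HL-60, at -0.37 (adjusted p = 0.0356), the latter -0.21 (adjusted p = 0.397) without replicate 1. The average call with shSYK_1 was lost without U937 shSYK_1 replicate 2 or HL-60 shSYK_1 replicate 1, each giving a log2 change of 0.17 with adjusted p of 0.0746 and 0.0736. The U937 call was lost without U937 shSYK_1 replicate 2 (0.39, adjusted p = 0.083). The MOLM-14 call was lost without shLuc replicate 1 (-0.39, adjusted p = 0.0536) or either shSYK_2 array (-0.45 and -0.47, adjusted p = 0.0882 and 0.0746). The HL-60 call was also lost without shLuc replicate 1 or 2 (-0.35 and -0.34, adjusted p = 0.0835 and 0.0935). The other HMGCS1 probe set gave average log2 changes of 0.26 and -0.32. HMGCS1 with the mean of its probe sets was not called for shSYK_2 in MOLM-14 (-0.31, adjusted p = 0.0789). HMGCS1 with the conflicting array counted as shSYK_1 was not called for shSYK_2 in HL-60 (-0.21, adjusted p = 0.62) or shSYK_1 on average (0.17, adjusted p = 0.104). HMGCS1 was not called for shSYK_2 in HL-60 with array weights (-0.37, adjusted p = 0.17) or a model of HL-60 alone (-0.37, adjusted p = 0.127).

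ACAT2 makes the acetoacetyl-CoA that HMGCS1 uses. ACAT2 had log2 intensities of 8.20, 7.96 and 7.91 on the shLuc arrays of MOLM-14, 8.19 and 8.26 with shSYK_1 and 7.77 and 7.71 with shSYK_2. In U937 cells ACAT2 had log2 intensities of 8.44, 8.26 and 8.36 with shLuc, 8.26 and 8.42 with shSYK_1 and 8.05 and 8.16 with shSYK_2. ACAT2 in HL-60 cells had log2 intensities of 8.42, 8.29 and 8.31 with shLuc, 8.38 and 8.26 with shSYK_1 and 8.06 and 8.12 with shSYK_2. All 6 shSYK_2 arrays lay below the control arrays of their line, while the shSYK_1 arrays overlapped them in each line. The average log2 change was -0.26 (SE 0.0508, adjusted p = 0.000846) with shSYK_2, against 0.06 (SE 0.0508, adjusted p = 0.459) with shSYK_1, and the hairpins differed by -0.32 (SE 0.0557, adjusted p = 0.000234). Of the single lines only MOLM-14 was called with shSYK_2, at a log2 change of -0.29 (adjusted p = 0.0347). That call was lost without MOLM-14 shLuc replicate 1 or either shSYK_2 array, where adjusted p was 0.112 to 0.206. ACAT2 with the conflicting array counted as shSYK_1 was not called for shSYK_2 in MOLM-14 (-0.29, adjusted p = 0.0893). ACAT2 was not called for shSYK_2 in MOLM-14 with a model of MOLM-14 alone (-0.29, adjusted p = 0.0902).

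IDI1 interconverts isopentenyl and dimethylallyl diphosphate. IDI1 had log2 intensities of 9.43, 9.15 and 9.41 on the shLuc arrays of MOLM-14, 9.37 and 9.34 with shSYK_1 and 9.03 and 9.03 with shSYK_2. In U937 cells IDI1 had log2 intensities of 9.54, 9.63 and 9.59 with shLuc, 9.44 and 9.44 with shSYK_1 and 9.51 and 9.52 with shSYK_2. IDI1 in HL-60 cells had log2 intensities of 9.55, 9.62 and 9.55 with shLuc, 9.34 and 9.42 with shSYK_1 and 9.34 and 9.33 with shSYK_2. The shSYK_2 arrays lay below the control arrays in each line, and so did the shSYK_1 arrays in U937 and HL-60. IDI1 fell with shSYK_2 with an average log2 change of -0.20 (SE 0.043, adjusted p = 0.00155). With shSYK_1 the average was -0.11 (SE 0.043, adjusted p = 0.0696), and the hairpin difference of -0.10 (adjusted p = 0.119) was not called. Calls with shSYK_2 were also made in MOLM-14 at -0.30 (adjusted p = 0.0102) and in HL-60 at -0.24 (adjusted p = 0.0331). The HL-60 value was -0.24 (adjusted p = 0.129) without replicate 1, and that call was lost as well without any other array of its comparison (adjusted p 0.0532 to 0.0968). The MOLM-14 call was lost without either shSYK_2 array (adjusted p = 0.0754 and 0.0706). IDI1 with the conflicting array counted as shSYK_1 was not called for shSYK_2 in HL-60 (-0.24, adjusted p = 0.224). IDI1 was not called for shSYK_2 in HL-60 with quantile normalization (-0.19, adjusted p = 0.0786), array weights (-0.24, adjusted p = 0.202) or a model of HL-60 alone (-0.24, adjusted p = 0.101). IDI1 was not called for shSYK_2 in MOLM-14 with a model of MOLM-14 alone (-0.30, adjusted p = 0.0776).

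FDPS, which makes farnesyl diphosphate, fell with shSYK_2 with an average log2 change of -0.19 (SE 0.0368, adjusted p = 0.000918) and was called in U937 alone, at -0.35 (adjusted p = 0.00108). With shSYK_1 its average was -0.02. MVK, the mevalonate kinase, rose with shSYK_1 at 0.17 (SE 0.0603, adjusted p = 0.0422), a call lost when any of 13 single arrays was left out (0.10 to 0.17, adjusted p 0.0507 to 0.191). It was called in MOLM-14 at 0.32 (adjusted p = 0.0331), and that call was lost without MOLM-14 shLuc replicate 1 or 2 or either shSYK_1 array (adjusted p 0.0734 to 0.129). MVK was not called for shSYK_1 in MOLM-14 with each array centred on its median (0.30, adjusted p = 0.0507). MVK was not called for shSYK_1 on average with each array centred on its median (0.14, adjusted p = 0.09), quantile normalization (0.15, adjusted p = 0.0714) or a trended and robust prior (0.17, adjusted p = 0.0667). PMVK, the next kinase, had average log2 changes of 0.06 and 0.05. MVD, the decarboxylase, had -0.10 and -0.03, and lay among the dimmest 40% of genes.

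In the sterol arm, the fall of LSS with shSYK_2 was the largest of the 30 genes on the average of the lines. LSS had log2 intensities of 8.04, 7.81 and 7.96 on the shLuc arrays of MOLM-14, 7.94 and 7.94 with shSYK_1 and 6.69 and 6.69 with shSYK_2. In U937 cells LSS had log2 intensities of 8.88, 8.85 and 8.75 with shLuc, 8.96 and 8.89 with shSYK_1 and 7.77 and 7.75 with shSYK_2. LSS in HL-60 cells had log2 intensities of 8.08, 8.12 and 8.10 with shLuc, 7.74 and 7.67 with shSYK_1 and 7.33 and 7.13 with shSYK_2. Both shSYK_2 arrays of each line lay below every shLuc and shSYK_1 array of that line, whereas the shSYK_1 arrays lay below the controls in HL-60, among them in MOLM-14 and above them in U937. The log2 change with shSYK_2 was -1.24 (SE 0.0747, adjusted p = 1.63e-08) in MOLM-14 and -1.06 (SE 0.0747, adjusted p = 5.24e-08) in U937. It was -0.87 (SE 0.0747, adjusted p = 5.39e-07) in HL-60. Without HL-60 shSYK_2 replicate 1 the HL-60 value was -0.97 (adjusted p = 2.1e-06). The average was -1.06 (SE 0.0431, adjusted p = 3.94e-11) with a 95% interval of -1.15 to -0.97. With shSYK_1 it was -0.10 (SE 0.0431, adjusted p = 0.0978), and the hairpins differed by -0.96 (SE 0.0472, adjusted p = 1.74e-10). In HL-60, LSS fell with shSYK_1 as well, with a log2 change of -0.39 (adjusted p = 0.000809), and the shSYK_1 responses of U937 and HL-60 differed by 0.49 (SE 0.106, adjusted p = 0.00691). A second LSS probe set, much dimmer at a mean log2 intensity of 3.31, showed average log2 changes of -0.04 and -0.07. LSS with the mean of its probe sets was not called for shSYK_1 in HL-60 (-0.20, adjusted p = 0.0894) or shSYK_1 in U937 against HL-60 (0.20, adjusted p = 0.364) and was still called for shSYK_2 in MOLM-14 (-0.59, adjusted p = 0.000104), shSYK_2 in U937 (-0.55, adjusted p = 0.000177), shSYK_2 in HL-60 (-0.56, adjusted p = 0.000155), shSYK_2 on average (-0.57, adjusted p = 1.56e-07) and the average hairpin difference (-0.50, adjusted p = 1.1e-06).

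EBP, a sterol isomerase, rose with shSYK_1 and fell with shSYK_2 on the average of the lines, at 0.15 (SE 0.0392, adjusted p = 0.00501) and -0.42 (SE 0.0392, adjusted p = 5.51e-07). EBP had log2 intensities of 7.96, 7.93 and 8.02 on the shLuc arrays of MOLM-14, 8.19 and 8.39 with shSYK_1 and 7.53 and 7.42 with shSYK_2. In U937 cells EBP had log2 intensities of 9.52, 9.50 and 9.40 with shLuc, 9.70 and 9.71 with shSYK_1 and 8.83 and 8.85 with shSYK_2. EBP in HL-60 cells had log2 intensities of 9.72, 9.71 and 9.71 with shLuc, 9.63 and 9.61 with shSYK_1 and 9.62 and 9.56 with shSYK_2. In MOLM-14 and U937 the shSYK_1 arrays lay above and the shSYK_2 arrays below all control arrays, and in HL-60 all 4 hairpin arrays lay just below them. With shSYK_1 the log2 change was 0.32 (SE 0.0679, adjusted p = 0.00197) in MOLM-14 and 0.23 (SE 0.0679, adjusted p = 0.0262) in U937. With shSYK_2 it was -0.50 (SE 0.0679, adjusted p = 8.5e-05) and -0.63 (SE 0.0679, adjusted p = 4.6e-06). The HL-60 values were -0.09 (adjusted p = 0.394) with shSYK_1 and -0.12 (adjusted p = 0.215) with shSYK_2, the latter -0.15 (adjusted p = 0.305) without replicate 1. U937 and HL-60 differed in their response to shSYK_1 by 0.32 (SE 0.096, adjusted p = 0.0456) and in that to shSYK_2 by -0.51 (SE 0.096, adjusted p = 0.00294). The average hairpin difference was -0.57 (SE 0.0429, adjusted p = 2.6e-08). The 3 EBP probe sets each gave a called fall with shSYK_2 (-0.42, -0.42 and -0.34), but with shSYK_1 only the one used was called (0.15, beside 0.09 and -0.04). The call for shSYK_1 in MOLM-14 was lost without shSYK_1 replicate 2 (0.22, adjusted p = 0.0613). That in U937 was lost without shLuc replicate 3 (0.19, adjusted p = 0.104) or either shSYK_1 array (adjusted p = 0.102 and 0.126). EBP with the mean of its probe sets was not called for shSYK_1 in MOLM-14 (0.14, adjusted p = 0.21), shSYK_1 in U937 (0.19, adjusted p = 0.108), shSYK_1 on average (0.07, adjusted p = 0.272) or shSYK_1 in U937 against HL-60 (0.32, adjusted p = 0.0817). EBP with the conflicting array counted as shSYK_1 was not called for shSYK_1 in U937 against HL-60 (0.32, adjusted p = 0.063). EBP was not called for shSYK_1 in U937 with a model of U937 alone (0.23, adjusted p = 0.0543).

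MSMO1 removes methyl groups at carbon 4 of the sterol ring. MSMO1 had log2 intensities of 8.34, 8.19 and 8.21 on the shLuc arrays of MOLM-14, 8.83 and 8.51 with shSYK_1 and 8.33 and 8.31 with shSYK_2. In U937 cells MSMO1 had log2 intensities of 8.46, 8.44 and 8.50 with shLuc, 9.004 and 9.07 with shSYK_1 and 8.41 and 8.51 with shSYK_2. MSMO1 in HL-60 cells had log2 intensities of 10.10, 10.13 and 10.18 with shLuc, 10.35 and 10.24 with shSYK_1 and 9.87 and 10.06 with shSYK_2. All 6 shSYK_1 arrays lay above the control arrays of their line, and the shSYK_2 arrays lay among the controls in MOLM-14, on both sides of them in U937 and below them in HL-60. MSMO1 rose with shSYK_1 with a log2 change of 0.42 (SE 0.0876, adjusted p = 0.00164) in MOLM-14 and 0.57 (SE 0.0876, adjusted p = 0.000221) in U937. In HL-60 the change of 0.16 (adjusted p = 0.233) was not called. The average was 0.38 (SE 0.0506, adjusted p = 1.22e-05), against -0.04 (SE 0.0506, adjusted p = 0.632) with shSYK_2, and the hairpins differed by -0.42 (SE 0.0554, adjusted p = 1.29e-05). Without MOLM-14 shSYK_1 replicate 1 the MOLM-14 change was 0.26 (adjusted p = 0.06). The U937 and HL-60 responses to shSYK_1 differed by 0.41 (SE 0.124, adjusted p = 0.048). MSMO1 with the conflicting array counted as shSYK_1 was not called for shSYK_1 in U937 against HL-60 (0.55, adjusted p = 0.0511).

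SQLE oxidizes squalene and is a rate-limiting step of the arm. SQLE had log2 intensities of 8.45, 8.20 and 8.29 on the shLuc arrays of MOLM-14, 8.34 and 8.43 with shSYK_1 and 8.19 and 8.13 with shSYK_2. In U937 cells SQLE had log2 intensities of 9.61, 9.60 and 9.63 with shLuc, 9.75 and 9.58 with shSYK_1 and 9.35 and 9.36 with shSYK_2. SQLE in HL-60 cells had log2 intensities of 9.64, 9.70 and 9.57 with shLuc, 9.32 and 9.31 with shSYK_1 and 9.13 and 9.40 with shSYK_2. All 6 shSYK_2 arrays lay below the control arrays of their line, and the shSYK_1 arrays did so in HL-60. SQLE fell with shSYK_2 with an average log2 change of -0.26 (SE 0.0499, adjusted p = 0.000647), and the shSYK_1 average was -0.06 (SE 0.0499, adjusted p = 0.372). The hairpins differed by -0.20 (SE 0.0546, adjusted p = 0.00856). In HL-60, SQLE fell with shSYK_1, at -0.32 (adjusted p = 0.0112), and with shSYK_2, at -0.37 (adjusted p = 0.00567), which was -0.24 (adjusted p = 0.135) without replicate 1. The shSYK_1 call there was lost without either shSYK_1 array (adjusted p = 0.0573 and 0.0716). All 3 SQLE probe sets fell with shSYK_2 (-0.26, -0.30 and -0.55). SQLE with the conflicting array counted as shSYK_1 was not called for shSYK_2 in HL-60 (-0.24, adjusted p = 0.281) or the average hairpin difference (-0.13, adjusted p = 0.108). SQLE was not called for shSYK_1 in HL-60 with a model of HL-60 alone (-0.32, adjusted p = 0.0743). SQLE was not called for shSYK_2 in HL-60 with a model of HL-60 alone (-0.37, adjusted p = 0.0615).

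NSDHL acts with MSMO1 on the methyl groups at carbon 4. NSDHL had log2 intensities of 5.99, 5.92 and 6.17 on the shLuc arrays of MOLM-14, 6.18 and 6.08 with shSYK_1 and 5.89 and 5.87 with shSYK_2. In U937 cells NSDHL had log2 intensities of 7.12, 7.21 and 6.99 with shLuc, 6.94 and 7.28 with shSYK_1 and 6.94 and 6.66 with shSYK_2. NSDHL in HL-60 cells had log2 intensities of 6.11, 6.28 and 6.21 with shLuc, 6.08 and 5.96 with shSYK_1 and 5.51 and 5.93 with shSYK_2. The 6 shSYK_2 arrays lay below the control arrays of their line, with HL-60 replicate 1 the farthest below. The average log2 change was -0.31 (SE 0.0741, adjusted p = 0.00412) with shSYK_2 and -0.02 (SE 0.0741, adjusted p = 0.864) with shSYK_1, and the hairpins differed by -0.29 (SE 0.0812, adjusted p = 0.0103). In HL-60 the shSYK_2 change of -0.48 (adjusted p = 0.0137) became -0.27 (adjusted p = 0.274) without replicate 1. The other NSDHL probe set fell with shSYK_2 as well (-0.40). NSDHL with the conflicting array counted as shSYK_1 was not called for shSYK_2 in HL-60 (-0.27, adjusted p = 0.527), shSYK_2 on average (-0.24, adjusted p = 0.0829) or the average hairpin difference (-0.16, adjusted p = 0.277). NSDHL was not called for shSYK_2 in HL-60 with array weights (-0.48, adjusted p = 0.0898) or a model of HL-60 alone (-0.48, adjusted p = 0.0659).

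Of the remaining sterol genes, DHCR7, the last reductase of cholesterol synthesis, fell with an average log2 change of -0.16 (SE 0.043, adjusted p = 0.00794) with shSYK_1 and -0.17 (SE 0.043, adjusted p = 0.00508) with shSYK_2. It was called with shSYK_1 in HL-60 at -0.38 (adjusted p = 0.000927) and with shSYK_2 in MOLM-14 at -0.26 (adjusted p = 0.0261). The MOLM-14 call was lost without shLuc replicate 2 or 3 or either shSYK_2 array (adjusted p 0.0676 to 0.218). DHCR7 with the mean of its probe sets was not called for shSYK_2 in MOLM-14 (-0.21, adjusted p = 0.0625) and was still called for shSYK_1 on average (-0.24, adjusted p = 0.000224). DHCR7 with the conflicting array counted as shSYK_1 was not called for shSYK_2 in MOLM-14 (-0.26, adjusted p = 0.0897), shSYK_1 on average (-0.13, adjusted p = 0.0697) or shSYK_2 on average (-0.17, adjusted p = 0.0523). DHCR7 was not called for shSYK_2 in MOLM-14 with quantile normalization (-0.22, adjusted p = 0.0622) or a model of MOLM-14 alone (-0.26, adjusted p = 0.0723). SC5D, a sterol desaturase, rose with shSYK_1 at 0.20 (SE 0.0443, adjusted p = 0.00192), but its other, dim probe set fell (-0.19). The SC5D call in MOLM-14 at 0.22 (adjusted p = 0.0418) was lost without any of 7 single arrays (0.12, adjusted p = 0.417, without MOLM-14 shSYK_1 replicate 1). SC5D with the mean of its probe sets was not called for shSYK_1 in MOLM-14 (0.04, adjusted p = 0.751), shSYK_1 on average (0.00, adjusted p = 0.971) or the average hairpin difference (-0.02, adjusted p = 0.838). SC5D with the conflicting array counted as shSYK_1 was not called for shSYK_1 in MOLM-14 (0.22, adjusted p = 0.127) or the average hairpin difference (-0.14, adjusted p = 0.123). SC5D was not called for shSYK_1 in MOLM-14 with each array centred on its median (0.20, adjusted p = 0.0842) or a model of MOLM-14 alone (0.22, adjusted p = 0.103). CYP51A1, which demethylates lanosterol, had average log2 changes of -0.10 (adjusted p = 0.223) and -0.13 (adjusted p = 0.113). Its other probe set fell with both hairpins (-0.14 and -0.30). TM7SF2, a sterol reductase among the dimmest 40% of genes, had -0.24 (adjusted p = 0.0793) and -0.25 (adjusted p = 0.0691). As a group, 3 of the 9 sterol genes rose (18.2% of all genes) and 1 fell (17.4%) with shSYK_1 (median -0.06). With shSYK_2, 0 rose (15.6%) and 5 fell (14.7%; median -0.25).

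**Figure D3:**
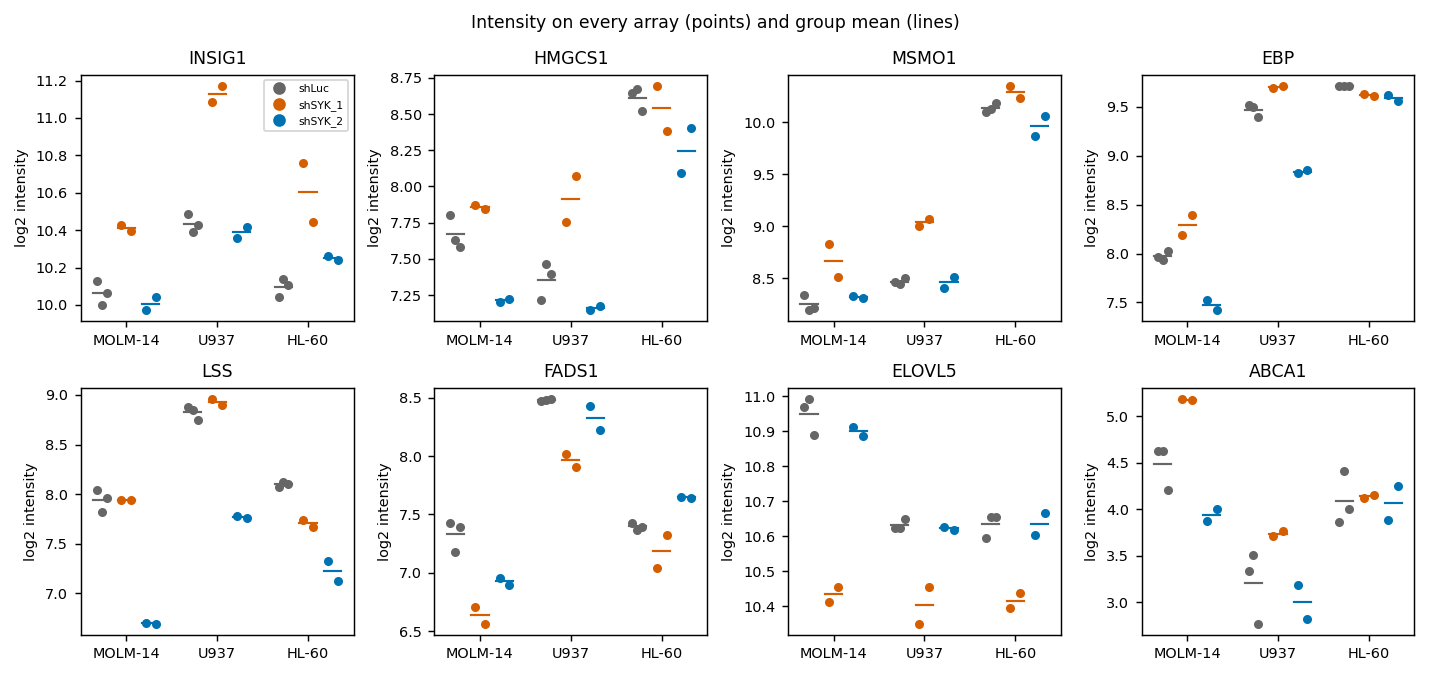
Log2 intensity (vertical axes, each with its own range that does not start at 0) of 8 genes on every array, by line and hairpin, with lines at the group means. The shSYK_2 arrays of LSS lie between 6.69 and 7.77, and the shSYK_1 arrays of INSIG1 between 10.39 and 11.17.

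Among the fatty acid genes, 4 of 6 fell with shSYK_1 (17.4% of all genes) and 2 of 6 with shSYK_2 (14.7%). None of the 6 rose with shSYK_1 (18.2% of all genes) or shSYK_2 (15.6%). FADS1 introduces the delta-5 double bond of arachidonic acid. FADS1 had log2 intensities of 7.42, 7.18 and 7.39 on the shLuc arrays of MOLM-14, 6.71 and 6.57 with shSYK_1 and 6.95 and 6.90 with shSYK_2. In U937 cells FADS1 had log2 intensities of 8.47, 8.48 and 8.49 with shLuc, 8.02 and 7.90 with shSYK_1 and 8.43 and 8.22 with shSYK_2. FADS1 in HL-60 cells had log2 intensities of 7.43, 7.37 and 7.40 with shLuc, 7.04 and 7.33 with shSYK_1 and 7.65 and 7.64 with shSYK_2. All 6 shSYK_1 arrays lay below the control arrays of their line, while the shSYK_2 arrays lay below them in MOLM-14 and U937 and above them in HL-60. FADS1 fell with shSYK_1 with a log2 change of -0.69 (SE 0.0925, adjusted p = 3.02e-05) in MOLM-14 and -0.52 (SE 0.0925, adjusted p = 0.000824) in U937, and was at -0.21 (adjusted p = 0.112) in HL-60. With shSYK_2 it fell in MOLM-14 at -0.40 (adjusted p = 0.00577), a call lost without MOLM-14 shSYK_2 replicate 2 (-0.38, adjusted p = 0.0668). The U937 and HL-60 values with shSYK_2 were -0.15 (adjusted p = 0.327) and 0.25 (adjusted p = 0.0645), the latter 0.25 (adjusted p = 0.229) without replicate 1, and the MOLM-14 response differed from the mean of theirs by -0.45 (SE 0.113, adjusted p = 0.0205). Averages were -0.47 (SE 0.0534, adjusted p = 2.06e-06) with shSYK_1 and -0.10 (SE 0.0534, adjusted p = 0.168) with shSYK_2, and the hairpins differed by 0.37 (SE 0.0585, adjusted p = 7.87e-05). The 3 FADS1 probe sets all fell with shSYK_1 (-0.37, -0.47 and -0.46). FADS1 with the mean of its probe sets was not called for shSYK_2 in MOLM-14 (-0.15, adjusted p = 0.185) or shSYK_2 in MOLM-14 against the other lines (-0.22, adjusted p = 0.161). FADS1 with the conflicting array counted as shSYK_1 was not called for shSYK_2 in MOLM-14 (-0.40, adjusted p = 0.0542) or shSYK_2 in MOLM-14 against the other lines (-0.45, adjusted p = 0.184).

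ELOVL5 lengthens polyunsaturated fatty acids. ELOVL5 had log2 intensities of 10.97, 10.99 and 10.89 on the shLuc arrays of MOLM-14, 10.41 and 10.46 with shSYK_1 and 10.91 and 10.89 with shSYK_2. In U937 cells ELOVL5 had log2 intensities of 10.62, 10.62 and 10.65 with shLuc, 10.35 and 10.45 with shSYK_1 and 10.63 and 10.62 with shSYK_2. ELOVL5 in HL-60 cells had log2 intensities of 10.59, 10.66 and 10.66 with shLuc, 10.39 and 10.44 with shSYK_1 and 10.60 and 10.67 with shSYK_2. The shSYK_1 arrays lay below all controls in each line, and the shSYK_2 arrays overlapped the controls. ELOVL5 was called lower with shSYK_1 in all 3 lines, at -0.52 (SE 0.0578, adjusted p = 5.18e-06) in MOLM-14, -0.23 (SE 0.0578, adjusted p = 0.0106) in U937 and -0.22 (SE 0.0578, adjusted p = 0.00921) in HL-60. The MOLM-14 change differed from the mean of the others by -0.29 (SE 0.0708, adjusted p = 0.0164). The U937 call was lost without shSYK_1 replicate 1 (-0.18, adjusted p = 0.139), as was the HL-60 call without its shSYK_1 replicate 1 (-0.20, adjusted p = 0.0844). On the average of the lines the change was -0.32 (SE 0.0334, adjusted p = 8.21e-07) with shSYK_1 and -0.02 (SE 0.0334, adjusted p = 0.712) with shSYK_2, a difference of 0.30 (SE 0.0366, adjusted p = 5.21e-06). The other ELOVL5 probe set, dim at a mean log2 intensity of 3.09, gave 0.08 and -0.21, so its hairpin difference had the opposite sign (-0.29). ELOVL5 with the mean of its probe sets was not called for shSYK_1 in MOLM-14 (-0.20, adjusted p = 0.0752), shSYK_1 in U937 (-0.15, adjusted p = 0.246), shSYK_1 in HL-60 (-0.02, adjusted p = 0.91), the average hairpin difference (0.01, adjusted p = 0.93) or shSYK_1 in MOLM-14 against the other lines (-0.12, adjusted p = 0.554) and was still called for shSYK_1 on average (-0.12, adjusted p = 0.0454). ELOVL5 with the conflicting array counted as shSYK_1 was not called for shSYK_1 in HL-60 (-0.16, adjusted p = 0.0974). ELOVL5 was not called for shSYK_1 in MOLM-14 against the other lines with quantile normalization (-0.21, adjusted p = 0.063). ELOVL5 was not called for shSYK_1 in HL-60 with a model of HL-60 alone (-0.22, adjusted p = 0.0969).

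ACLY makes cytosolic acetyl-CoA from citrate. ACLY had log2 intensities of 10.22, 10.22 and 10.19 on the shLuc arrays of MOLM-14, 9.92 and 10.01 with shSYK_1 and 10.29 and 10.24 with shSYK_2. In U937 cells ACLY had log2 intensities of 10.13, 10.14 and 10.10 with shLuc, 10.08 and 10.08 with shSYK_1 and 10.07 and 9.97 with shSYK_2. ACLY in HL-60 cells had log2 intensities of 10.14, 10.25 and 10.17 with shLuc, 9.82 and 9.75 with shSYK_1 and 10.05 and 10.14 with shSYK_2. The shSYK_1 arrays lay below all control arrays in each line, and the shSYK_2 arrays lay above them in MOLM-14 and below them in U937 and HL-60. ACLY fell with shSYK_1 with an average log2 change of -0.23 (SE 0.0345, adjusted p = 4.84e-05), and the shSYK_2 average was -0.05 (SE 0.0345, adjusted p = 0.333). The hairpins differed by 0.18 (SE 0.0378, adjusted p = 0.00103). Falls with shSYK_1 were called in MOLM-14 at -0.25 (adjusted p = 0.00538) and in HL-60 at -0.40 (adjusted p = 8.68e-05), and the U937 and HL-60 responses differed by 0.35 (SE 0.0844, adjusted p = 0.0145). The MOLM-14 call was lost without shSYK_1 replicate 1 (-0.20, adjusted p = 0.0742). ACLY with the conflicting array counted as shSYK_1 was not called for shSYK_1 in U937 against HL-60 (0.27, adjusted p = 0.179).

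FASN is the fatty acid synthase. FASN had log2 intensities of 7.19, 6.90 and 7.03 on the shLuc arrays of MOLM-14, 6.96 and 6.98 with shSYK_1 and 7.03 and 6.97 with shSYK_2. In U937 cells FASN had log2 intensities of 6.70, 6.85 and 6.71 with shLuc, 7.03 and 6.83 with shSYK_1 and 6.56 and 6.71 with shSYK_2. FASN in HL-60 cells had log2 intensities of 7.24, 7.25 and 7.20 with shLuc, 6.56 and 6.62 with shSYK_1 and 6.36 and 6.83 with shSYK_2. In HL-60 all 4 hairpin arrays lay below the controls, and in MOLM-14 the hairpin arrays lay among them. FASN fell in HL-60 with a log2 change of -0.64 (SE 0.114, adjusted p = 0.00044) with shSYK_1 and -0.64 (SE 0.114, adjusted p = 0.000877) with shSYK_2, the latter -0.40 (adjusted p = 0.0276) without replicate 1. The other lines were not called, with values from -0.11 to 0.17, and the U937 and HL-60 responses to shSYK_1 differed by 0.81 (SE 0.161, adjusted p = 0.00417). The average was -0.18 (adjusted p = 0.0451) with shSYK_1, a call lost when any of 15 single arrays was left out (-0.19 to -0.14, adjusted p 0.0512 to 0.146), and -0.26 (adjusted p = 0.00605) with shSYK_2. The other, dim FASN probe set gave averages of -0.01 and 0.04. FASN with the mean of its probe sets was not called for shSYK_1 on average (-0.09, adjusted p = 0.234) or shSYK_2 on average (-0.11, adjusted p = 0.157) and was still called for shSYK_1 in HL-60 (-0.34, adjusted p = 0.0169), shSYK_2 in HL-60 (-0.39, adjusted p = 0.00916) and shSYK_1 in U937 against HL-60 (0.51, adjusted p = 0.0278). FASN with the conflicting array counted as shSYK_1 was not called for shSYK_2 in HL-60 (-0.40, adjusted p = 0.0893).

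SCD, the stearoyl-CoA desaturase, makes monounsaturated fatty acids. SCD had log2 intensities of 11.38, 11.33 and 11.50 on the shLuc arrays of MOLM-14, 11.12 and 11.26 with shSYK_1 and 10.998 and 10.95 with shSYK_2. In U937 cells SCD had log2 intensities of 11.55, 11.42 and 11.59 with shLuc, 11.59 and 11.49 with shSYK_1 and 11.28 and 11.39 with shSYK_2. SCD in HL-60 cells had log2 intensities of 10.31, 10.22 and 10.16 with shLuc, 10.20 and 10.09 with shSYK_1 and 9.82 and 9.91 with shSYK_2. All 6 shSYK_2 arrays lay below the control arrays of their line. SCD fell with shSYK_2 with a log2 change of -0.43 (SE 0.0793, adjusted p = 0.00123) in MOLM-14 and -0.37 (SE 0.0793, adjusted p = 0.00364) in HL-60, the latter -0.32 (adjusted p = 0.0535) without replicate 1, and was at -0.18 (adjusted p = 0.138) in U937. The average was -0.33 (SE 0.0458, adjusted p = 3.95e-05), against -0.09 (SE 0.0458, adjusted p = 0.135) with shSYK_1, and the hairpins differed by -0.23 (SE 0.0501, adjusted p = 0.00143). All 4 SCD probe sets fell with shSYK_2, from -0.33 to -0.72. SCD with the mean of its probe sets was still called for shSYK_2 in HL-60 (-0.70, adjusted p = 1.86e-05), shSYK_2 on average (-0.51, adjusted p = 5.19e-07) and the average hairpin difference (-0.44, adjusted p = 5.26e-06). SCD with the conflicting array counted as shSYK_1 was not called for shSYK_2 in HL-60 (-0.32, adjusted p = 0.211) or the average hairpin difference (-0.18, adjusted p = 0.0626). SCD was not called for shSYK_2 in HL-60 with array weights (-0.36, adjusted p = 0.0513). FADS2, the delta-6 desaturase, had average log2 changes of -0.06 (adjusted p = 0.692) and -0.18 (adjusted p = 0.205).

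Of the genes that control SREBP, INSIG1, which is itself an SREBP target, rose with shSYK_1 in every line. INSIG1 had log2 intensities of 10.13, 10.000 and 10.06 on the shLuc arrays of MOLM-14, 10.43 and 10.39 with shSYK_1 and 9.97 and 10.04 with shSYK_2. In U937 cells INSIG1 had log2 intensities of 10.49, 10.39 and 10.43 with shLuc, 11.09 and 11.17 with shSYK_1 and 10.36 and 10.42 with shSYK_2. INSIG1 in HL-60 cells had log2 intensities of 10.04, 10.14 and 10.11 with shLuc, 10.76 and 10.44 with shSYK_1 and 10.26 and 10.24 with shSYK_2. All 6 shSYK_1 arrays lay above every control and shSYK_2 array of their line, and the shSYK_2 arrays overlapped the controls except in HL-60, where both lay above. The log2 change with shSYK_1 was 0.35 (SE 0.0801, adjusted p = 0.0037) in MOLM-14, 0.69 (SE 0.0801, adjusted p = 1.2e-05) in U937 and 0.51 (SE 0.0801, adjusted p = 0.000145) in HL-60. The average was 0.52 (SE 0.0462, adjusted p = 1.5e-07) with a 95% interval of 0.42 to 0.61. With shSYK_2 the average was 0.02 (SE 0.0462, adjusted p = 0.836) with an interval of -0.08 to 0.11, and the hairpins differed by -0.50 (SE 0.0506, adjusted p = 7.26e-07). The 3 INSIG1 probe sets rose with shSYK_1 by 0.59, 0.52 and 0.52. With shSYK_2 they gave -0.34, 0.02 and -0.05, of which the first was called.

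SREBF1 encodes SREBP-1, which favours genes of fatty acid synthesis. SREBF1 had log2 intensities of 7.32, 7.34 and 7.14 on the shLuc arrays of MOLM-14, 6.58 and 6.73 with shSYK_1 and 7.22 and 7.07 with shSYK_2. In U937 cells SREBF1 had log2 intensities of 6.55, 6.50 and 6.47 with shLuc, 6.60 and 6.48 with shSYK_1 and 6.62 and 6.69 with shSYK_2. SREBF1 in HL-60 cells had log2 intensities of 5.14, 5.09 and 5.23 with shLuc, 4.97 and 5.35 with shSYK_1 and 5.06 and 5.37 with shSYK_2. The shSYK_1 arrays lay below the controls in MOLM-14, the shSYK_2 arrays lay above them in U937, and in HL-60 the hairpin arrays overlapped the controls. SREBF1 fell with shSYK_1 in MOLM-14 with a log2 change of -0.62 (SE 0.111, adjusted p = 0.000512). In U937 and HL-60 the changes were 0.03 (adjusted p = 0.896) and 0.01 (adjusted p = 0.976), and MOLM-14 differed from their mean by -0.64 (SE 0.136, adjusted p = 0.00753). The average of -0.19 (adjusted p = 0.0274) was lost as a call without any of 5 single arrays, where adjusted p was 0.0512 to 0.127 (-0.13 without HL-60 shSYK_1 replicate 1). With shSYK_2 the average was 0.03 (adjusted p = 0.775). The average hairpin difference of 0.22 (adjusted p = 0.0205) was lost as a call without any of 6 single arrays (adjusted p 0.0522 to 0.0792).

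SREBF2 encodes SREBP-2, which favours genes of sterol synthesis, and its promoter above holds the sterol regulatory element. SREBF2 had log2 intensities of 5.85, 5.57 and 5.46 on the shLuc arrays of MOLM-14, 5.47 and 5.82 with shSYK_1 and 5.66 and 5.51 with shSYK_2. In U937 cells SREBF2 had log2 intensities of 5.56, 5.83 and 5.60 with shLuc, 5.81 and 5.56 with shSYK_1 and 5.60 and 5.53 with shSYK_2. SREBF2 in HL-60 cells had log2 intensities of 6.36, 6.35 and 6.28 with shLuc, 6.06 and 6.18 with shSYK_1 and 6.02 and 6.12 with shSYK_2. In HL-60 all 4 hairpin arrays lay below the controls, and in MOLM-14 the groups overlapped. The average log2 change of -0.05 (SE 0.0707, adjusted p = 0.652) with shSYK_1 and -0.13 (SE 0.0707, adjusted p = 0.183) with shSYK_2 was not called. The other SREBF2 probe set, at a mean log2 intensity of 5.41 against 5.82, fell with both hairpins, at -0.65 (adjusted p = 3.74e-07, over probe sets) and -0.40 (adjusted p = 0.000118), so the probe sets of SREBF2 differed in their calls. SCAP, the escort of SREBP, had average log2 changes of -0.12 (adjusted p = 0.125) and 0.04 (adjusted p = 0.671).

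Of the 4 LXR-regulated genes, ABCA1 and MYLIP rose with shSYK_1 on the average of the lines (18.2% of all genes), 0 fell (17.4%), and 0 were called with shSYK_2 (30.3%). ABCA1 and ABCG1 lay among the dimmest 40% of genes. ABCA1 moves cholesterol to apolipoprotein A-I. ABCA1 had log2 intensities of 4.62, 4.63 and 4.21 on the shLuc arrays of MOLM-14, 5.19 and 5.17 with shSYK_1 and 3.87 and 4.01 with shSYK_2. In U937 cells ABCA1 had log2 intensities of 3.34, 3.51 and 2.77 with shLuc, 3.71 and 3.76 with shSYK_1 and 3.18 and 2.82 with shSYK_2. ABCA1 in HL-60 cells had log2 intensities of 3.86, 4.41 and 4.01 with shLuc, 4.12 and 4.16 with shSYK_1 and 3.88 and 4.25 with shSYK_2. In MOLM-14 the shSYK_1 arrays lay above and the shSYK_2 arrays below all controls, in U937 the shSYK_1 arrays lay above them, and in HL-60 the groups overlapped. ABCA1 rose with shSYK_1 with an average log2 change of 0.42 (SE 0.115, adjusted p = 0.00801), and the shSYK_2 average was -0.26 (SE 0.115, adjusted p = 0.104). The hairpins differed by -0.68 (SE 0.126, adjusted p = 0.000374). In MOLM-14 the rise was 0.69 (SE 0.2, adjusted p = 0.0165), a call lost without MOLM-14 shLuc replicate 3 or either shSYK_1 array (adjusted p 0.0721 to 0.0864). The MOLM-14 change with shSYK_2 was -0.55 (adjusted p = 0.0743). Of the other 4 ABCA1 probe sets, 1 moved alike (0.49 and -0.40), and 3 gave -0.13 to 0.05 with shSYK_1. ABCA1 with the mean of its probe sets was still called for shSYK_1 in MOLM-14 (0.33, adjusted p = 0.00546), shSYK_1 on average (0.17, adjusted p = 0.00878) and the average hairpin difference (-0.27, adjusted p = 0.000489). ABCA1 was still called for shSYK_1 in MOLM-14 with 16 added before log2 (0.44, adjusted p = 0.00164). ABCA1 was still called for shSYK_1 on average with 16 added before log2 (0.22, adjusted p = 0.00302). ABCA1 was still called for the average hairpin difference with 16 added before log2 (-0.35, adjusted p = 0.000126).

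MYLIP is a ubiquitin ligase induced by LXR. MYLIP had log2 intensities of 6.77, 6.71 and 6.50 on the shLuc arrays of MOLM-14, 7.12 and 7.02 with shSYK_1 and 6.15 and 6.27 with shSYK_2. In U937 cells MYLIP had log2 intensities of 5.97, 5.93 and 5.83 with shLuc, 6.36 and 5.997 with shSYK_1 and 5.92 and 5.97 with shSYK_2. MYLIP in HL-60 cells had log2 intensities of 5.60, 5.47 and 5.26 with shLuc, 5.48 and 5.40 with shSYK_1 and 5.41 and 5.43 with shSYK_2. The shSYK_1 arrays lay above the controls in MOLM-14 and U937, the shSYK_2 arrays below them in MOLM-14, and the HL-60 groups overlapped. MYLIP rose with shSYK_1 in MOLM-14 with a log2 change of 0.41 (SE 0.11, adjusted p = 0.0106) and fell there with shSYK_2, at -0.45 (SE 0.11, adjusted p = 0.00913). The former call was lost without shSYK_1 replicate 1 (0.36, adjusted p = 0.095) and the latter without shSYK_2 replicate 1 (-0.39, adjusted p = 0.105). The response to shSYK_2 in MOLM-14 differed from the mean of the other lines by -0.46 (SE 0.135, adjusted p = 0.0491). The average was 0.22 (SE 0.0635, adjusted p = 0.01) with shSYK_1 and -0.15 (SE 0.0635, adjusted p = 0.0969) with shSYK_2, and the hairpins differed by -0.37 (SE 0.0696, adjusted p = 0.000425). The average call with shSYK_1 was at the threshold without U937 shSYK_1 replicate 1 (0.16, adjusted p = 0.05002). MYLIP with the conflicting array counted as shSYK_1 was not called for shSYK_2 in MOLM-14 against the other lines (-0.46, adjusted p = 0.108). MYLIP was not called for shSYK_2 in MOLM-14 against the other lines with each array centred on its median (-0.43, adjusted p = 0.0577).

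NR1H3 encodes the receptor LXR-alpha. NR1H3 had log2 intensities of 4.44, 4.12 and 4.23 on the shLuc arrays of MOLM-14, 4.25 and 4.25 with shSYK_1 and 4.43 and 4.14 with shSYK_2. In U937 cells NR1H3 had log2 intensities of 4.55, 4.34 and 4.54 with shLuc, 5.04 and 4.49 with shSYK_1 and 4.81 and 5.25 with shSYK_2. NR1H3 in HL-60 cells had log2 intensities of 3.93, 3.87 and 4.06 with shLuc, 4.38 and 4.27 with shSYK_1 and 3.35 and 4.15 with shSYK_2. The shSYK_2 arrays of U937 and the shSYK_1 arrays of HL-60 lay above their controls, and the 2 shSYK_2 arrays of HL-60 lay on both sides. No NR1H3 change was called, with averages of 0.21 (adjusted p = 0.176) and 0.12 (adjusted p = 0.462), and the HL-60 change with shSYK_2 was 0.20 (adjusted p = 0.618) without replicate 1.

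ABCG1 moves cholesterol to mature HDL particles. ABCG1 had log2 intensities of 2.72, 2.80 and 3.02 on the shLuc arrays of MOLM-14, 2.88 and 2.81 with shSYK_1 and 2.81 and 2.81 with shSYK_2. In U937 cells ABCG1 had log2 intensities of 2.63, 3.03 and 2.86 with shLuc, 2.86 and 2.71 with shSYK_1 and 2.88 and 3.12 with shSYK_2. ABCG1 in HL-60 cells had log2 intensities of 2.88, 2.90 and 2.98 with shLuc, 2.79 and 2.78 with shSYK_1 and 3.08 and 3.08 with shSYK_2. All 21 values lay between 2.63 and 3.12, with the HL-60 shSYK_1 arrays below and the HL-60 shSYK_2 arrays above the controls of that line. ABCG1 was called with neither hairpin, at average log2 changes of -0.06 (adjusted p = 0.497) and 0.09 (adjusted p = 0.277).

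The 23 SREBP targets and the 4 LXR-regulated genes were also averaged on each array. The mean log2 change of the SREBP targets from the control mean of the line was 0.00 on both shSYK_1 arrays of MOLM-14, 0.05 and 0.03 in U937, and -0.10 and -0.12 in HL-60. On the shSYK_2 arrays it was -0.20 and -0.19 in MOLM-14, -0.21 and -0.19 in U937, and -0.21 (replicate 1) and -0.15 in HL-60. All 6 shSYK_2 arrays lay below all control arrays of their line, which ranged from -0.08 to 0.07. The mean of the LXR-regulated genes was 0.29 and 0.25 with shSYK_1 in MOLM-14, 0.38 and 0.13 in U937, and 0.09 and 0.05 in HL-60. With shSYK_2 it was -0.25 and -0.26 in MOLM-14, 0.09 and 0.18 in U937, and -0.17 (replicate 1) and 0.13 in HL-60. The shSYK_2 arrays thus had no common sign for the LXR-regulated genes. The SREBP mean minus the LXR mean, averaged over lines, was -0.22 with shSYK_1 and -0.15 with shSYK_2. No test was made of these means, because the genes were chosen. The median log2 change of the DNA replication genes with shSYK_2 was -0.46 in MOLM-14 and -1.19 in U937 but -0.09 in HL-60, and its part in the SREBP means was not tested.

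**Figure D4:**
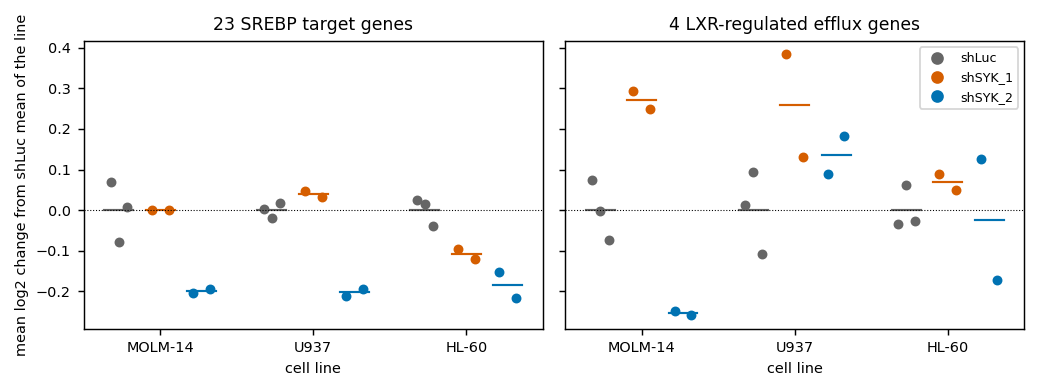
Mean log2 change from the shLuc mean of the line over the 23 SREBP targets (left) and the 4 LXR-regulated genes (right) on each array, with lines at group means. The 6 shSYK_2 arrays on the left lie between -0.21 and -0.15, while those on the right lie between -0.26 and 0.18.

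The control cells of the lines were also compared with each other. Between MOLM-14 and U937, 22 of the 30 genes were called (52.1% of all genes), 7 higher (25.7%) and 15 lower (26.4%) in MOLM-14. Between MOLM-14 and HL-60, 17 were called (49.4%), 6 higher (23.0%) and 11 lower (26.4%) in MOLM-14. Between U937 and HL-60, 19 were called (52.8%), 10 higher (25.8%) and 9 lower (27.0%) in U937. SQLE, CYP51A1, MSMO1, EBP, SC5D and DHCR7 of the sterol arm were lower in MOLM-14 than in both other lines. The difference from U937 was lost as a call for SC5D without any of 12 single arrays (adjusted p 0.0537 to 0.146). For MSMO1 it was lost without MOLM-14 shLuc replicate 2 or 3 or U937 shLuc replicate 1 or 3 (adjusted p 0.0541 to 0.0895). With the conflicting array counted as shSYK_1 neither was called (adjusted p = 0.126 for SC5D and 0.0948 for MSMO1), and SC5D was not with the mean of its probe sets (-0.09, adjusted p = 0.301) or each array centred on its median (-0.16, adjusted p = 0.074). EBP had a control mean log2 intensity of 7.97 in MOLM-14 against 9.47 in U937 and 9.71 in HL-60, and SQLE had 8.31, 9.61 and 9.64. MSMO1 was highest in HL-60 at 10.14, against 8.25 and 8.47. SREBF1 ran the other way, at 7.27 in MOLM-14, 6.51 in U937, then 5.15 in HL-60, and each pair of lines differed. SCD was at 11.40 in MOLM-14 against 11.52 in U937 and 10.23 in HL-60, and MOLM-14 and U937 were not called apart. MYLIP was at 6.66, 5.91 and 5.45, and each pair of lines differed.

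**Figure D5:**
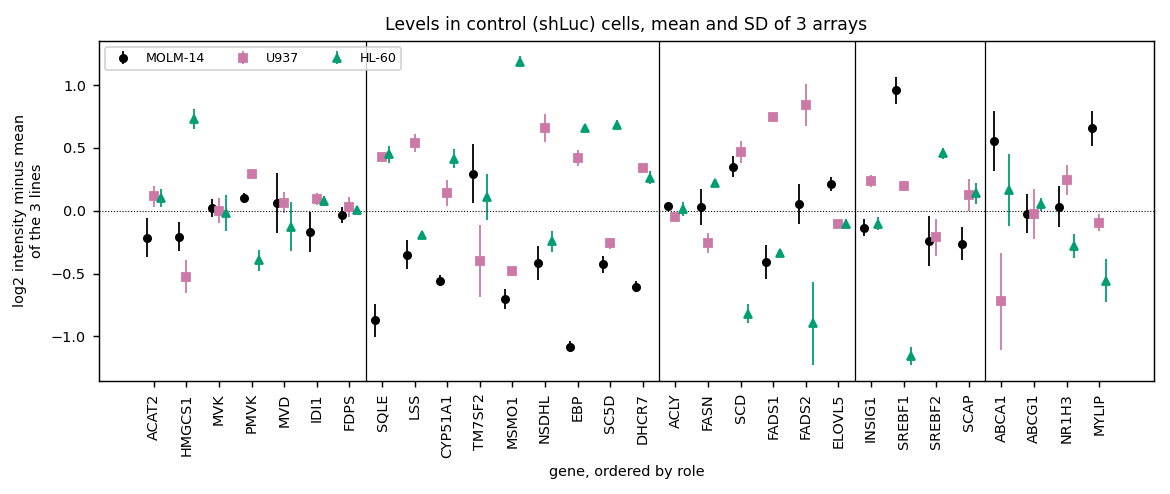
Log2 intensity of each gene in shLuc cells minus the mean of the 3 lines, as mean and SD of 3 arrays, ordered by role. In the sterol arm most MOLM-14 points lie below 0, with EBP lowest there, while SREBF1 is highest in MOLM-14.

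Tests of a difference in response between lines called from 1 to 6 of the 30 genes. For shSYK_1, MOLM-14 differed from the mean of the other lines in 2 of the 30 (8.18% of all genes), 0 higher (3.62%) and 2 lower (4.56%), namely ELOVL5 and SREBF1. U937 differed from HL-60 in 6 (8.81%), all 6 higher in U937 (3.63%) and 0 lower (5.19%). These were HMGCS1, LSS, MSMO1, EBP, ACLY and FASN, of sterol and fatty acid synthesis. For shSYK_2, MOLM-14 differed in 2 (7.74%), 0 higher (3.88%) and 2 lower (3.86%), namely FADS1 and MYLIP, and U937 from HL-60 in 1 (8.67%), 0 higher (4.27%) and 1 lower (4.40%), EBP. Under every single array left out, the calls for LSS and FASN with shSYK_1 and for EBP with shSYK_2 stayed under the threshold, though the LSS call was lost with the mean of its probe sets (0.20, adjusted p = 0.364). The others did not: with shSYK_1, ELOVL5 (-0.27, adjusted p = 0.0821) and SREBF1 (-0.56, adjusted p = 0.0593) were lost without MOLM-14 shSYK_1 replicate 1, and ACLY (0.32, adjusted p = 0.0684) without HL-60 shSYK_1 replicate 2. HMGCS1 was lost without U937 shLuc replicate 1, U937 shSYK_1 replicate 2, HL-60 shLuc replicate 1 or 2, or HL-60 shSYK_1 replicate 2 (adjusted p 0.0518 to 0.140). FADS1 was lost without MOLM-14 shLuc replicate 1 or 3, either MOLM-14 shSYK_2 array or U937 shSYK_2 replicate 1 (adjusted p 0.0523 to 0.110). The shSYK_1 calls for EBP and MSMO1 and the shSYK_2 call for MYLIP were lost when any of 17, 16 and 17 single arrays was left out.

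Other genes of sterol supply were taken from a list of 40, of which 28 were measured and the others were not analysed here. With shSYK_1, 8 rose (18.2% of all genes), 4 fell (17.4%) and 16 were not called (median log2 change 0.02). With shSYK_2, 8 rose (15.6%), 2 fell (14.7%) and 18 were not called (median 0.08). NPC1, NPC2 and LIPA, which act in the release of cholesterol from lysosomes, rose with both hairpins. NPC1, which exports cholesterol from lysosomes, had an average log2 change of 0.38 (SE 0.0534, adjusted p = 2.57e-05) with shSYK_1 and 0.49 (SE 0.0534, adjusted p = 2.89e-06) with shSYK_2. NPC2, its partner in the lysosome, had 0.52 (SE 0.0529, adjusted p = 6.34e-07) and 0.40 (SE 0.0529, adjusted p = 2.23e-05), and LIPA, the lysosomal cholesteryl ester hydrolase, had 0.42 (SE 0.0396, adjusted p = 2.98e-07) and 0.50 (SE 0.0396, adjusted p = 9.14e-08). ME1, the malic enzyme that supplies NADPH to lipid synthesis, rose with both, at 0.67 (SE 0.0503, adjusted p = 1.77e-08) and 0.64 (SE 0.0503, adjusted p = 7.14e-08). SMPDL3A, an LXR target in macrophages, rose to a log2 change of 0.84 (SE 0.0597, adjusted p = 9.44e-09) with shSYK_1 and was at 0.12 (SE 0.0597, adjusted p = 0.132) with shSYK_2. TMEM97, a sterol-responsive gene that binds NPC1, fell with both, at -0.51 (SE 0.0356, adjusted p = 8.44e-09) and -0.19 (SE 0.0356, adjusted p = 0.000679). ERLIN2, which acts in the degradation of proteins of the endoplasmic reticulum, was at -0.01 (adjusted p = 0.883) with shSYK_1 and rose, at 0.35 (SE 0.047, adjusted p = 2.47e-05), with shSYK_2. SOAT1, which esterifies cholesterol for storage, was at -0.05 (adjusted p = 0.739) with shSYK_1 and fell, at -0.35 (SE 0.087, adjusted p = 0.00554), with shSYK_2. Among these 8 genes the hairpins differed for SMPDL3A by -0.71 (adjusted p = 2.36e-07), for TMEM97 by 0.32 (adjusted p = 5.92e-06), for ERLIN2 by 0.36 (adjusted p = 2.85e-05) and for SOAT1 by -0.30 (adjusted p = 0.0208). The SOAT1 difference was lost as a call without MOLM-14 shSYK_1 replicate 2, U937 shSYK_1 replicate 2 or HL-60 shSYK_2 replicate 1 (adjusted p 0.0538 to 0.0582). Without the last array the SOAT1 values were -0.23 (adjusted p = 0.0128) for shSYK_2 and -0.18 for the difference. SOAT1 with the conflicting array counted as shSYK_1 was not called for shSYK_2 on average (-0.23, adjusted p = 0.286) or the average hairpin difference (-0.07, adjusted p = 0.813). TMEM97 with the mean of its probe sets was still called for shSYK_2 on average (-0.31, adjusted p = 5.52e-07). TMEM97 with the conflicting array counted as shSYK_1 was not called for shSYK_2 on average (-0.18, adjusted p = 0.107). NPC1 with the mean of its probe sets was still called for shSYK_1 on average (0.19, adjusted p = 0.00419) and shSYK_2 on average (0.15, adjusted p = 0.0287).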

How the data were processed

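Arrays of 21 cultures, in 9 groups, were used. The authors deposited RMA values, per the submitters' processing notes, as linear intensities from 3.23 to 13025 per probe set. The design had allowed for log2 values, so log2 was taken here. RMA is meant to equalize intensity distributions between arrays, so changes are relative to all genes. The deposited distributions were not fully equal, with array medians from 18.4 to 20.6. HL-60 shSYK_2 replicate 1 had an upper quartile of 122.3, against 134.5 to 139.8 on the other arrays. The number of arrays limits the precision. Of 22277 probe sets, 19724 carried 1 gene symbol in the platform annotation, 568 several and 1923 none (62 were controls). For 19707 the symbol was taken from RefSeq by gene ID, whether or not the name changed. Per gene, the probe set with the highest mean log2 intensity was kept, which left 12165 genes.

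limma 3.58.1 in R 4.3.3 fitted 9 group means with 1 shared spread (12 residual degrees of freedom). Tests were two-sided, with Benjamini-Hochberg adjustment over all genes and a threshold of 0.05. The model was tested on simulated data.

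The members, lists and tests were chosen with earlier results of these data known. Values on every array were given for INSIG1, SREBF1, SREBF2, HMGCS1, SQLE, LSS, FASN, SCD, the 4 LXR-regulated genes, and the 8 other members with the largest called change in an average or in the hairpin difference. Of the other pathway genes, the 8 with the largest called average change were named. Promoters and names came from RefSeq tables. Alternatives covered probe set choice, dim genes, scaling, a pseudocount, the variance model, array weights, replicate blocks, the array with conflicting labels, each line alone, and leaving out each array.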

Additional observations from a re-analysis of the deposited data

Results flagged for a closer look

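In 11 instances the response of a gene differed between lines by limma's test of the difference, with adjusted p over all 12165 genes. For shSYK_1, the log2 change in MOLM-14 minus the mean of those in U937 and HL-60 was -0.29 (adjusted p = 0.0164) for ELOVL5 and -0.64 (adjusted p = 0.00753) for SREBF1. The log2 change with shSYK_1 in U937 minus that in HL-60 was 0.63 (adjusted p = 0.0255) for HMGCS1, 0.49 (adjusted p = 0.00691) for LSS, 0.41 (adjusted p = 0.048) for MSMO1, 0.32 (adjusted p = 0.0456) for EBP, 0.35 (adjusted p = 0.0145) for ACLY and 0.81 (adjusted p = 0.00417) for FASN. For shSYK_2, the change in MOLM-14 minus the mean of the others was -0.45 (adjusted p = 0.0205) for FADS1 and -0.46 (adjusted p = 0.0491) for MYLIP. The change with shSYK_2 in U937 minus that in HL-60 was -0.51 (adjusted p = 0.00294) for EBP. The LSS value was 0.20 (adjusted p = 0.364) with the mean of its probe sets. The groups hold 2 or 3 arrays, too few to look for arrays that stand apart within a group.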

How the results depend on the processing

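Of the differences of single genes, 3 changed sign and became calls under an alternative, all with the mean of all probe sets of a gene. They were INSIG1 with shSYK_2 on average (-0.13, adjusted p = 0.0423), SREBF2 with shSYK_1 in MOLM-14 (-0.32, adjusted p = 0.0287) and ACLY between shLuc U937 and HL-60 (0.16, adjusted p = 0.0178). None of the 3 had been called with the probe set used. Counts of members called that moved by over 1.5 times were as follows. With the mean of probe sets, shSYK_2 called 5 in U937 and 11 in HL-60, the shSYK_1 difference of MOLM-14 from the others 1, and the shSYK_2 difference of U937 from HL-60 3. Without the dimmest 40% of genes, and with 16 added before log2, the shSYK_2 counts were 7 in U937 and 3 for U937 against HL-60. Centring each array on its median gave 1 for the shSYK_2 difference of MOLM-14 and 2 for U937 against HL-60, and quantile normalization gave 1 for the shSYK_1 difference of MOLM-14 and 2 for shSYK_2 in U937 against HL-60. A trended and robust prior gave 8 for shSYK_2 in U937, 5 for the shSYK_1 difference of MOLM-14 and 3 for shSYK_2 in U937 against HL-60. Array weights gave 7 for shSYK_2 in U937 and 3 in HL-60. A model of HL-60 alone gave 3 for shSYK_2, and placing the array with conflicting labels in shSYK_1 gave 1 for shSYK_2 in HL-60 and 0 for the shSYK_2 difference of MOLM-14. The share of all genes called is not given for these alternatives, for the replicate block or for the arrays left out below. The counts therefore do not show whether the members moved more than other genes. The cause of these shifts was not tested.

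Of 18 same-number pairs of arrays, 0 had a correlation of deviations from the group means over 0.1 (-0.21 to 0.09). In a group of 2 arrays the deviations mirror each other, so a crossed pair takes the opposite sign. HL-60 shSYK_1 replicate 1 and shSYK_2 replicate 2 thus had 0.21. Whether arrays were paired in another order was not tested. With the replicate block, counts were 8 for the shSYK_1 average, 4 for shSYK_2 in HL-60, 12 for shLuc MOLM-14 against U937, 1 and 1 for the shSYK_1 differences between lines, and 0 for the shSYK_2 difference of MOLM-14. The block ended 44 of 171 calls of single genes, not all of which are listed with the genes above. Among the 44 was the U937 minus HL-60 response of LSS to shSYK_1 (0.45, adjusted p = 0.0927). The 44 also include calls between the control cells of the lines. Blocks lie within lines, so such differences then depend on the replicate taken as reference and are not read here. The same holds for the count of 12. Within a line, shLuc replicate 3 has no hairpin array of its number, so the block takes it out of the hairpin comparisons.

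Leaving out each of the 21 arrays gave 11 to 15 members for the shSYK_1 average, 11 to 13 for shSYK_2 and 16 to 19 for the hairpin difference. Single-line ranges for shSYK_1 and shSYK_2 were 5 to 11 and 4 to 10 in MOLM-14, 4 to 8 and 3 to 5 in U937, and 6 to 8 and 2 to 8 in HL-60. Control contrasts gave 17 to 22, 17 to 19 and 17 to 19. Differences between lines gave 1 to 3 and 2 to 7 for shSYK_1, and 0 to 3 and 1 to 3 for shSYK_2. The SREBP minus LXR mean, averaged over lines, ranged from -0.26 to -0.18 with shSYK_1 and -0.19 to -0.11 with shSYK_2. The lowest counts came without MOLM-14 shSYK_1 replicate 1 (5), either MOLM-14 shSYK_2 array (4) and HL-60 shSYK_2 replicate 1 (2).

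Low signal limits MVD, TM7SF2, ABCA1 and ABCG1. Where a gene had several probe sets (19 members), all had the same call (higher, lower or not called) in 9 with shSYK_1 and 12 with shSYK_2. The calls differed in 9 with shSYK_1 and 7 with shSYK_2, and in 1 (SC5D, with shSYK_1) called probe sets opposed each other. Only 2 or 3 arrays stand behind each group mean.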
